A study of Mus musculus with 2 samples.

Results

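The genes described are 9 transcription factors of the naive, or ground, state of pluripotency in mouse embryonic stem (ES) cells: Klf2, Klf4, Klf5, Tbx3, Tfcp2l1, Zfp42, Esrrb, Nr5a2 and Nr0b1. They were chosen by name, as every probe on the arrays whose gene name equals a member of this list. All 9 were found, with 12 probes in all, among 34650 gene names on the arrays. RNA of EpiSC and of ELA-EpiSC was measured on 1 array each. Both cultures came from E14Tg2A, an ES cell line of the strain 129/Ola that had been grown in serum with LIF. EpiSC, epiblast stem cells, were made from ES cells directly. ELA-EpiSC were made from the same cells by way of Epiblast-Like Aggregates (ELA), the clusters that ES cells form after serum and LIF are withdrawn. The factors shared by both groups were FGF2 at 12 ng/mL and Activin A at 20 ng/mL, in a chemically defined minimal medium with N2/B27. Each RNA sample was a pool of 3 sets of experiments with 1 cell line, of which 50 ng was labelled per the labels, so no difference below has a replicate.

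The source field of the labels goes against the rest of them. It names an Argonaute immunoprecipitate at 0DIV for the EpiSC sample and total RNA at 0DIV for the ELA-EpiSC sample, where 0DIV is the day LIF was withdrawn, while titles, descriptions and molecule fields name total RNA of EpiSC and ELA-EpiSC. The titles were followed. Markers of the primed epiblast were bright on both arrays: Fgf5 was at 15.19 log2 in EpiSC and 15.34 in ELA-EpiSC. The shared pluripotency factors were also present, with Pou5f1 at 14.27 and 14.46, Sox2 at 10.48 and 10.21, and Nanog at 13.41 and 13.73, in the same order. The 3 probes of Nanog ran from -0.31 to 0.32 in their differences.

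LIF and serum, or inhibitors of MEK and GSK3, sustain the naive state in culture. In that state many of these factors bind the regulatory regions of one another and of Pou5f1, Sox2 and Nanog. Several of them can replace LIF when forced on. LIF acts through STAT3, which activates Klf4 and Tfcp2l1, while inhibition of GSK3 relieves repression of Esrrb, Tfcp2l1 and Klf2 by Tcf7l1. Most of the set is shut down as cells pass to the primed state of the post-implantation epiblast, which is the state that FGF2 and Activin A sustain in EpiSC. Some of these factors also have roles outside the naive state, Tbx3 and Klf5 among them, in endoderm, trophoblast and other epithelia.

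The naive genes did not move as a block between the cultures. Tbx3, Nr0b1 and Tfcp2l1 were lower in ELA-EpiSC by more than 1 on the log2 scale, with 13.5-fold, 6.68-fold and 2.67-fold less signal. Klf5 went the other way, 5.66-fold higher in ELA-EpiSC. Klf2, Klf4, Zfp42 and Esrrb had small differences, from -0.33 to 0.43, and Nr5a2 was too dim on both arrays to be counted. A minimum of 7.5 for the mean log2 of both arrays was passed by 8 of the 9, and of these 3 (37.5%) were higher in EpiSC past 1, where 4.46% of all 16649 genes tested were, and 1 (12.5%) was higher in ELA-EpiSC, where 4.54% were. Of these genes Nr0b1 passed the minimum through its EpiSC level. The 9 genes were chosen with earlier results of these data known, so the shares describe the set and test nothing. The median difference of the 9 genes was -0.22 (log2 ELA-EpiSC minus EpiSC, the direction used throughout), against 0.00 over all genes tested, and turned to 0.32 when the arrays were scaled on the spike-in RNAs. Their median absolute difference was 0.43, against 0.28 over all genes tested. Both medians of the 9 genes include Nr5a2, which did not pass the minimum that all genes tested passed. Over all 25851 genes detected, without that minimum, the median difference was -0.01.

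The array measured each gene through probes of 60 bases, and the probes behind the 4 differences past 1 are shown so that the stretch of RNA measured can be seen. Probes of the genes higher in EpiSC are given by their first 30 bases, 5′ to 3′ in the sense of the transcript, with the mm9 position of the whole probe. The Klf5 probe is given whole, because it spans 9733 bases of the genome and so crosses at least 1 intron. Its capitals mark the 37 bases shared, without gaps, with the most similar probe of any other gene, one of the zinc finger gene Zfp72.
Tbx3 (chr5:120134511-120134570, plus strand): ctttatggtgttttggattggtgtactgag
Nr0b1 (chrX:83441169-83441228, plus strand): gagtgtggtactaggctaacaagctaattt
Tfcp2l1, brighter probe (chr1:120581646-120581705, plus strand): gtacctgaaataaagcatattttgcacttg
Tfcp2l1, dimmer probe (chr1:120577637-120577696, plus strand): gtctaaactggagagccaaagatggcacac
Klf5 (chr14:99702656-99712388, plus strand): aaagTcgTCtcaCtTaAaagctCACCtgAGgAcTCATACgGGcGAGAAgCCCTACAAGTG
The longest capital stretches of the Klf5 probe lie at its 3′ end, over the linker that joins zinc fingers in this class of protein. The other 11 probes shared 32 to 34 of 60 bases with their most similar probe of another gene, so none of the 12 had a near copy among the other probes, read without gaps on the same strand.

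Tbx3, a T-box factor that supports self-renewal and can also drive endoderm genes, showed the widest gap of the set. Its probe read 2372 intensity units on the EpiSC array over a local background of 25.5, but 175 units over a background of 22 on the other array. After normalization these were 11.37 and 7.62 log2, a difference of -3.75. The gap was 37.2 times the spot SD at this level (0.10 log2), which covers spot noise only. The spot SD is the SD, over replicate spots, of the difference between the arrays. It was taken as a root mean square over the 30 probes nearest in level among those printed 10 times. Among all genes tested, 0.144% had a lower difference. Tbx3 was thus a moderately bright gene in EpiSC and close to the counting minimum in ELA-EpiSC, though still well above background there.

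**Figure D1:**
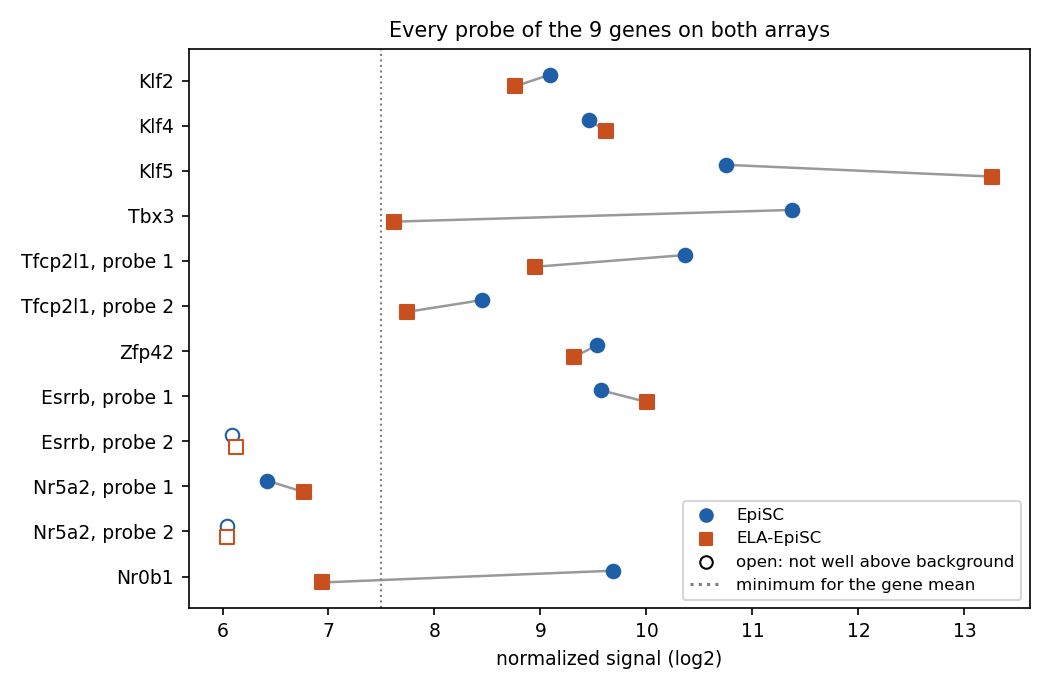
Normalized signal (log2, horizontal axis) of the 12 probes of the 9 genes, with EpiSC as circles and ELA-EpiSC as squares, slightly offset, and open symbols for probes not well above background. Probe 1 is the one used for the gene, and the dotted line is the minimum of 7.5 for the mean of a gene. The long lines are those of Tbx3 (11.37 to 7.62), Nr0b1 (9.68 to 6.94) and Klf5 (10.75 to 13.26). Tfcp2l1 is next (10.37 to 8.95 on probe 1), and the other genes lie closer together.

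Nr0b1, also called Dax1, is an orphan nuclear receptor without a DNA-binding domain of the usual kind that restrains Esrrb and Nr5a2, and it is the gene of the set with most measurements. Its probe was printed 10 times on each array. On the EpiSC array the 10 spots ran from 9.49 to 10.04 log2, with a median of 9.67 (mean 9.68 ± 0.20, SD over spots). On the ELA-EpiSC array the 9 unflagged spots ran from 6.86 to 7.02, with a median of 6.95 (mean 6.94 ± 0.05). The lowest EpiSC spot was therefore above the highest ELA-EpiSC spot by a wide margin, and every one of the 9 spot pairs was lower in ELA-EpiSC. The pair differences ran from -2.94 to -2.52 (mean -2.70 ± 0.15), and the difference of the array means was -2.74. These spots share 1 RNA pool on each array, so they measure the printing and the scan, not the cultures.

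In raw signal the Nr0b1 spots read 624 to 916 units in EpiSC and 86.8 to 106 units in ELA-EpiSC. With a mean background of 25.5 units, the ELA-EpiSC spots were dim but well above background. The offset of 50 units added in the background correction weighs on a signal of this size, and with an offset of 0 the difference was -3.40. For Tbx3 it was -4.15 with an offset of 0.

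**Figure D2:**
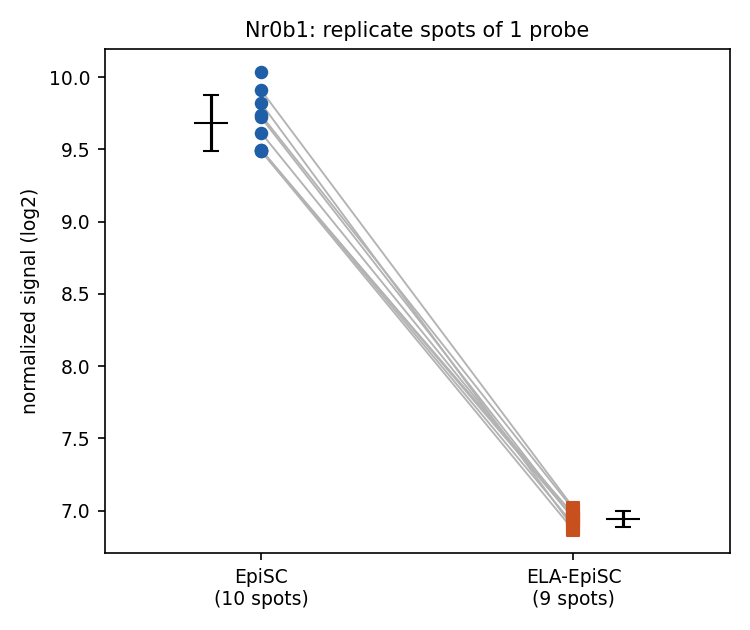
Normalized signal (log2, vertical axis) of the replicate spots of the Nr0b1 probe on the EpiSC array (10 spots) and the ELA-EpiSC array (9 unflagged spots). Lines join spots at the same array position, and bars give mean and SD over spots. The EpiSC spots lie between 9.49 and 10.04 and the ELA-EpiSC spots between 6.86 and 7.02, without overlap.

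Tfcp2l1, a Grainyhead-family factor downstream of LIF and STAT3, was measured by both probes printed above, which lie 4009 bases apart in the same transcript. The brighter one read 10.37 log2 in EpiSC but 8.95 in ELA-EpiSC, which differ by -1.42. The dimmer one read 8.44 and 7.74, a difference of -0.70. Both were lower in ELA-EpiSC, but they disagreed in size by 0.71, several times the spot SD of 0.10 to 0.11. The mean of the probes was -1.06, and the dimmer probe alone was not past 1.

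Klf5, a Krüppel-like zinc finger factor that maintains ES cell self-renewal and is also used in trophoblast and epithelia, was the single gene of the set higher in ELA-EpiSC past 1. Its probe read 1520 units in EpiSC and 10656 units in ELA-EpiSC, over backgrounds of 23 and 21. The normalized values were 10.75 and 13.26 log2, a difference of 2.501, or 26.2 times the spot SD of 0.10. Among all genes tested, 0.396% had a higher difference. The raw signals differed by more than the normalized ones, with a ratio of 7.10 after subtraction of the background against 5.66-fold, and with an offset of 0 the difference was 2.54.

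The other Krüppel-like members, Klf2 and Klf4, which share much of their DNA binding with Klf5 in ES cells, stayed near equal signal. Klf2 went from 9.09 log2 in EpiSC to 8.76 in ELA-EpiSC (-0.33, or 0.21 with spike-in scaling). Klf4, a target of STAT3, was at 9.46 and 9.62, a difference of 0.16. Both differences were small beside the central 95% of all genes tested, which ran from -1.32 to 1.37, and were 2.93 and 1.56 times the spot SD of 0.11 and 0.10.

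Zfp42, or Rex1, a zinc finger protein widely used as a marker of naive cells, was at 9.54 log2 in EpiSC against 9.32 in ELA-EpiSC (-0.22, or 0.32 with spike-in scaling). Before normalization the ELA-EpiSC spot was the brighter one, at 672 against 645 units, so the sign of this difference came from the scaling of the arrays. Esrrb, an orphan nuclear receptor that binds many ground-state genes and can substitute for Nanog, was at 9.57 and 10.01, a difference of 0.43. A second Esrrb probe, designed on another transcript record, stayed at background level on both arrays (6.09 and 6.13, not well above background). Zfp42 and Esrrb were thus both measured on both arrays at similar levels, with opposite and small differences.

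Nr5a2, the nuclear receptor Lrh1, which can activate Pou5f1, was the dimmest gene of the set. Its brighter probe was well above background on both arrays but read only 51.5 and 79.6 units over backgrounds of 26 and 24. The normalized values were 6.42 and 6.77 log2, a difference of 0.35 at a mean below 7.5, so the gene entered no count. Its second probe was at background level on both arrays. At this brightness much of the value hangs on the offset, and with an offset of 0 the difference was 0.74.

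**Figure D3:**
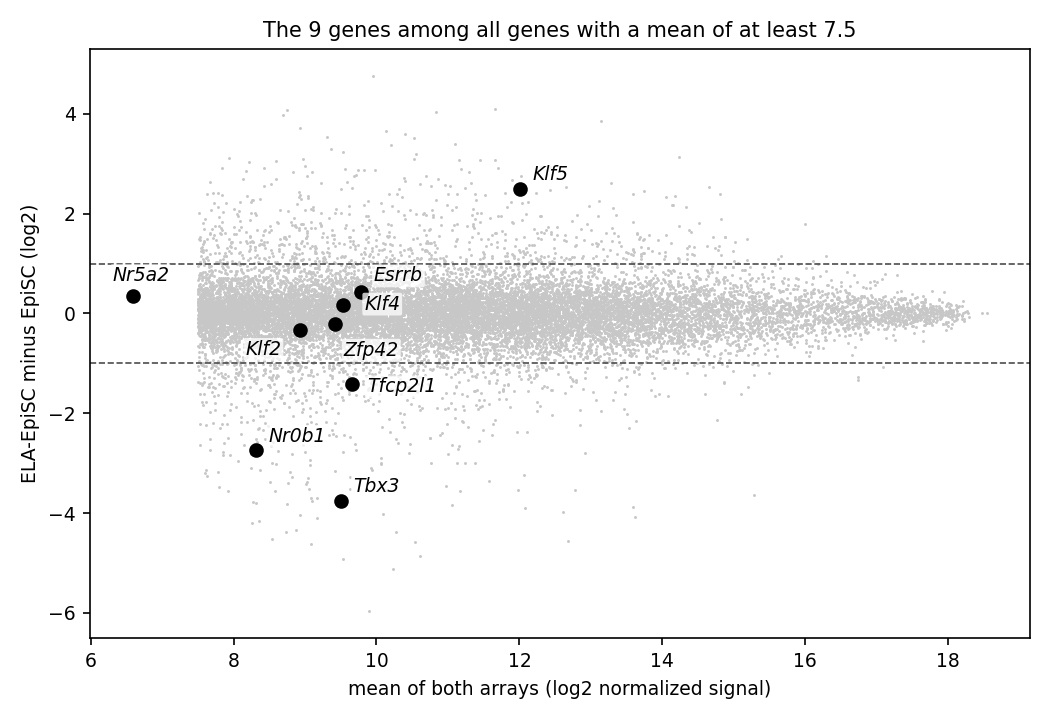
Difference between the arrays (log2 ELA-EpiSC minus EpiSC, vertical axis) against the mean of both arrays (log2, horizontal axis) for the 16649 genes tested (grey) and the 9 genes (black). Dashed lines mark a difference of 1 in each direction, and Nr5a2 is shown although it lies below the minimum of 7.5. Tbx3, Nr0b1 and Tfcp2l1 lie below the lower line, Klf5 above the upper line, and Klf2, Klf4, Zfp42 and Esrrb inside the grey cloud.

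The families of the members were set beside them to show how far a member moved with its relatives. Of 17 Krüppel-like factors 14 passed the minimum, and 11 of the 14 had a positive difference, with a median of 0.76. Only Klf5 and Klf10, a factor induced by TGF-beta and at 1.30, were past 1 in ELA-EpiSC, where 4.54% of all genes tested were. Past 1 in EpiSC were 0 of the 14, where 4.46% were. Without the 3 members, 9 of 11 differences were positive, with a median of 0.77, and the members Klf2 and Klf4 lay at the lower end of the family. The family's range was -0.46 to 2.501, so Klf5 was its most extreme gene. Several of its genes sat just under 1, Klf6 at 0.99 among them, so the count past 1 depends on the scaling: 6 were past 1 with median scaling, where 6.69% of all genes tested were, and 9 with spike-in scaling, where 14.94% were.

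The T-box relatives of Tbx3 were mostly dim in ELA-EpiSC. Of those listed, 3 passed the minimum, and 2 of these were lower in ELA-EpiSC past 1, where 4.46% of all genes tested were. Both passed through their EpiSC level, so this count supports nothing about the family. Tbx1, a factor of pharyngeal development, was at 10.82 log2 in EpiSC but at 7.30 in ELA-EpiSC (-3.52). Tbx20, a heart factor, was at 9.54 and 6.58 (-2.95), and it no longer passed the minimum with an offset of 0 or with the mean of its probes. The third, Tbx6, had a difference of -0.26. The relatives Tbx2 and Tbx4, both under the minimum, were named after their values were seen. Tbx2 was at 8.26 and 6.48, a difference of -1.78. Tbx4 went the other way, not well above background in EpiSC and at 7.09 in ELA-EpiSC, and Tbx5 was not detected.

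Relatives of the remaining members stayed mostly within 1. All 5 Grainyhead-family relatives of Tfcp2l1 passed the minimum, and of these Grhl3, an epidermal factor, was lower in ELA-EpiSC past 1, at -1.06, a call that was lost with median and with spike-in scaling. Grhl1 was at 0.82 in the other direction, and passed 1 with those scalings and with the processed signal. Of the nuclear receptor relatives of Esrrb, Nr0b1 and Nr5a2, 3 passed the minimum, with differences from -0.53 to 0.32 and 0 past 1. Yy1 and Yy2, the relatives of Zfp42, were at 0.00 and 0.19. Among these relatives Grhl3 alone was past 1 in the direction of Nr0b1 and Tfcp2l1, where 4.46% of all genes tested were.

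**Figure D4:**
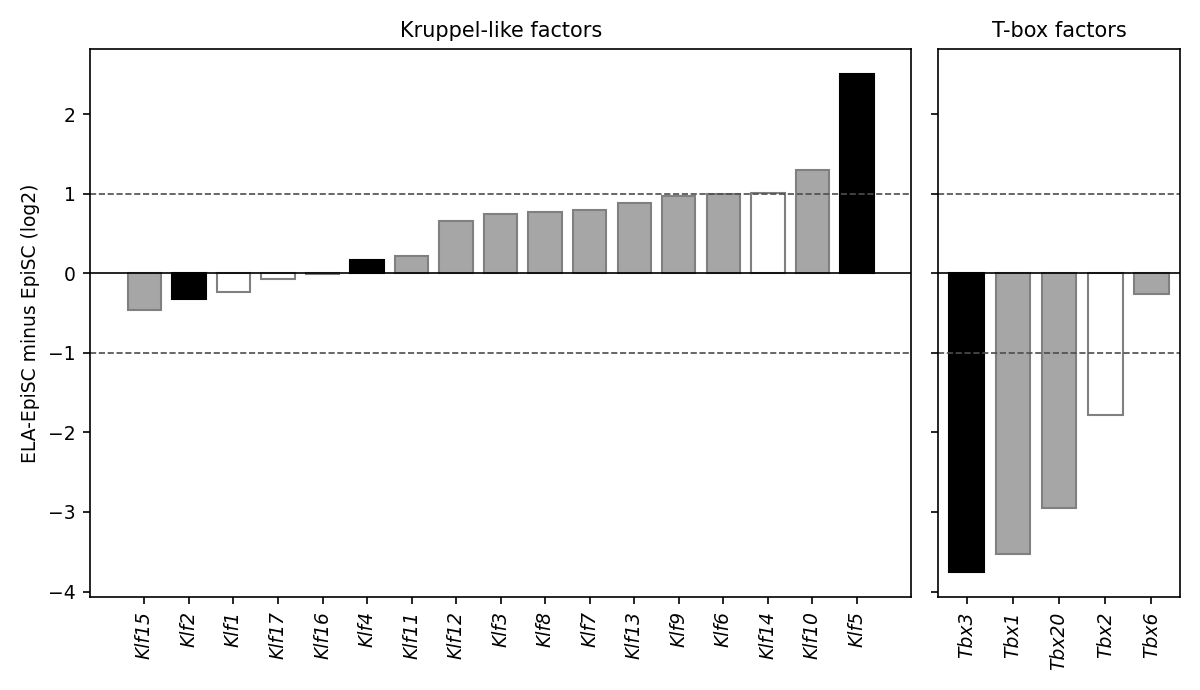
Difference between the arrays (log2 ELA-EpiSC minus EpiSC, vertical axis) of the 17 Krüppel-like factors and of T-box factors detected on both arrays (which leaves out Tbx4), with the members in black, relatives in grey and genes below the minimum mean of 7.5 as open bars. Dashed lines mark a difference of 1. Klf5 is the highest bar of its family at 2.501, and Tbx3, Tbx1 and Tbx20 reach -3.75, -3.52 and -2.95.

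Other genes tied to the naive circuit were also measured. Of 12 other ground-state genes 7 passed the minimum, with a median difference of -0.15 that turned to 0.05 with median scaling and 0.39 with spike-in scaling. Of these, 2 were lower in ELA-EpiSC past 1, where 4.46% of all genes tested were. Fgf4, a growth factor made by ES cells, went from 11.04 to 9.62 log2 (-1.41), and Dppa5a, a marker of pluripotent cells, from 14.07 to 12.78 (-1.30). With spike-in scaling 0 of the 7 were lower past 1, where 1.84% of all genes tested were. In that scaling 2 were higher past 1, Fbxo15 and Zscan10, where 14.94% were. Prdm14 was not detected.

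Most of the upstream signalling genes had positive differences, on a list that mixes activating inputs with repressors. All 17 listed genes of the LIF, Wnt and repressor inputs passed the minimum, and 15 were positive. Their median difference was 0.37, against 0.00 over all genes tested. Past 1 in EpiSC were 0 of them, where 4.46% of all genes tested were, and past 1 in ELA-EpiSC were 2, where 4.54% were. With spike-in scaling 6 were past 1 in ELA-EpiSC, where 14.94% of all genes tested were. With the mean of all detected probes 1 of 16 was, where 4.19% were, and 13 of the 16 differences were positive. Il6st, the gp130 co-receptor of LIF, went from 9.26 log2 in EpiSC to 10.44 in ELA-EpiSC (1.18). Axin2, a target of canonical Wnt signalling, was at 8.03 and 9.39, a difference of 1.36 on its brighter probe and of 0.32 on its other probe. The lowest of the 17 differences was -0.17 on the brightest probes, but other probes of Gsk3b and Mbd3 reached -0.24 and -0.38.

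All 12 primed epiblast genes passed the minimum, with a median of 0.43, and 10 of the 12 were positive. Pou3f1, a POU factor of the primed epiblast and neural tissue, was past 1 in ELA-EpiSC at 1.46. Zic2, a zinc finger factor of the same stage, was too, at 1.68, and 4.54% of all genes tested were. None was past 1 in EpiSC in the values used, where 4.46% of all genes tested were, and Dnmt3b was with scaling on the 75th percentile.

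Most endoderm markers that passed the minimum, and some trophoblast markers, were lower in ELA-EpiSC along with Tbx3, Nr0b1 and Tfcp2l1. A neural and a fibroblast marker were higher. In a bulk sample, fewer cells of a type and less RNA per cell cannot be told apart. Of 13 endoderm markers, all detected on at least 1 array, 9 passed the minimum, 7 of those were lower in ELA-EpiSC and 4 were lower past 1, where 4.46% of all genes tested were. These were Hnf4a, which went from 12.79 to 7.67 log2, Amn, from 10.00 to 7.25, Gata4, from 12.11 to 9.72, and Ttr, at 9.53 in EpiSC and not well above background in ELA-EpiSC. With an offset of 0 or 16 the Ttr mean no longer passed the minimum, and 3 markers were past 1. Ttr and Amn passed the minimum through their EpiSC level. The summed linear signal of the 13 was 60563 in EpiSC and 33226 in ELA-EpiSC. Gata6, Sox17 and Foxa2, which also define endoderm, were within 1 and bright on both arrays. The 2 markers past the minimum that were not lower, Cubn and Dab2, had differences of 0.11 and 0.20.

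Of 9 trophoblast markers 8 passed the minimum. Of these, Gata3 (-2.56), Plet1 (-1.49) and Elf5 (-1.48) were lower in ELA-EpiSC past 1, where 4.46% of all genes tested were. Tfap2c (1.16) was higher past 1, where 4.54% were. The other probe of Plet1 was at -0.68, not past 1. Elf5, at 8.40 log2 in EpiSC and 6.92 in ELA-EpiSC, passed the minimum through its EpiSC level. With spike-in scaling Gata3 alone of the 3 stayed lower past 1, and Elf5 did not pass the minimum with an offset of 0 or 16 or without background correction. The summed signal of the trophoblast markers was 295688 and 255237, most of it from the keratins Krt8 and Krt18, which many epithelia make. Of the neural markers 1 of 3 that passed was past 1 in ELA-EpiSC, Nes at 2.11, where 4.54% of all genes tested were. The neural sums of 6239 in EpiSC and 23027 in ELA-EpiSC were mostly Nes, and Pax6 and Olig2 were not detected. Of the fibroblast markers 1 of 3 that passed was past 1 in ELA-EpiSC, against the same share. This was Col1a1, at 7.07 log2 in EpiSC and 10.79 in ELA-EpiSC (3.72), which passed the minimum through its ELA-EpiSC level. The others that passed, Col1a2 and Thy1, had differences of 0.08 and 0.05. Col3a1, at 6.52 and 8.39 (1.88), fell just under the minimum with a mean of 7.46. With scaling on the 75th percentile, on the median or by cyclic loess it passed. In those scalings 2 of 4 fibroblast markers were past 1, where 4.27%, 6.69% and 4.53% of all genes tested were. Dcn, also under the minimum, went the other way, at -0.33. The fibroblast sums were 3475 in EpiSC and 5475 in ELA-EpiSC, and Lum was not detected. With spike-in scaling the median of the trophoblast markers turned from -0.43 to 0.10. The part of any of these cell types in the differences of Tbx3, Nr0b1, Tfcp2l1 and Klf5 was not tested.

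The promoters of the members were searched for binding motifs of the circuit. RefSeq windows (GRCm38.p6) of the 250 bases before the start were at hand for 7 of the 9 genes, in 9 windows because Esrrb and Nr5a2 have more than 1 start. Both strands were searched, in these and in all 32851 windows of the same length. The octamer of Pou5f1 (ATGCAAAT) was found before 1 member, Zfp42, and in 1.60% of all windows. A Krüppel-like factor box (CCCCACCC) was found before Zfp42 and in both windows of Esrrb, and in 9.05% of all windows. The estrogen-related receptor element (TCAAGGTCA), which contains the Nr5a element (CAAGGTCA), the T-box site (AGGTGTGA) and the STAT element (TTCCNGGAA) were found in 0 of the 9 windows, and in 0.39%, 1.33%, 1.12% and 0.91% of all windows.

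The window of Zfp42 is shown because it alone held more than 1 of these motifs, in capitals. Those of Nr0b1 and Tfcp2l1 are shown because both genes were lower in ELA-EpiSC past 1. Neither held any of the motifs, and neither did the windows of Klf2, Klf4 and Nr5a2, which were not past 1.
Zfp42 (chr8:43307010-43307259, minus strand): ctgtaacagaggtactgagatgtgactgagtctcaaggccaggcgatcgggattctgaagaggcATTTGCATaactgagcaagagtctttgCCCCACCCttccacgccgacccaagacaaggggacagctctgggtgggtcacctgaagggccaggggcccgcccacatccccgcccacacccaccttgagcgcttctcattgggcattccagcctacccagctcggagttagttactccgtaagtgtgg
Nr0b1 (chrX:86191525-86191774, plus strand): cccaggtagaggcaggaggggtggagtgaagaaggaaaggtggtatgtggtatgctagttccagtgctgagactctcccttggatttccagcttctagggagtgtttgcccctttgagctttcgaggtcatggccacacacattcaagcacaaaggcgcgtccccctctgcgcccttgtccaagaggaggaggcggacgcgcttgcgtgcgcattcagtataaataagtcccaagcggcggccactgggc
Tfcp2l1 (chr1:118627695-118627944, plus strand): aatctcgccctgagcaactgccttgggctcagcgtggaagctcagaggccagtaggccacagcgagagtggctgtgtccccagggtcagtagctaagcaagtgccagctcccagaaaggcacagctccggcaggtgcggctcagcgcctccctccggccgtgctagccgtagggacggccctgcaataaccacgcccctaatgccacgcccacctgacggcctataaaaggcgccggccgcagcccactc
In Zfp42 the octamer began 186 bases before the start, read on the opposite strand, and the Krüppel-like factor box 159 bases before it. The windows of Klf4 and Klf2 were the richest of the 9 in CpG, with 32 and 29 CpG in 250 bases, followed by Tfcp2l1 with 16, Nr0b1 with 11 and Zfp42 with 9, against a median of 6 over all windows. The windows of Esrrb and Nr5a2 held 2 to 6. A match to these letters describes the window and says nothing of binding in these cells.

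The differences of Tbx3, Nr0b1 and Klf5 kept their direction and their size class. Under 13 alternatives in background correction, normalization and choice of probe, Tbx3 ran from -4.23 to -3.22, Nr0b1 from -3.64 to -2.20 and Klf5 from 2.49 to 3.04, past 1 in every one. Tbx3, Nr0b1 and Klf5 have 1 probe each, so the choice of probe could not move them. Tfcp2l1 ran from -1.51 to -0.88 and was past 1 in 12 of the 13. The exception was scaling on the spike-in RNAs, of which 8 of 10 were detected and all 8 read lower on the ELA-EpiSC array, by 0.54 on average. Setting these equal raised every difference by 0.54, which turned Klf2 to 0.21 and Zfp42 to 0.32.

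**Figure D5:**
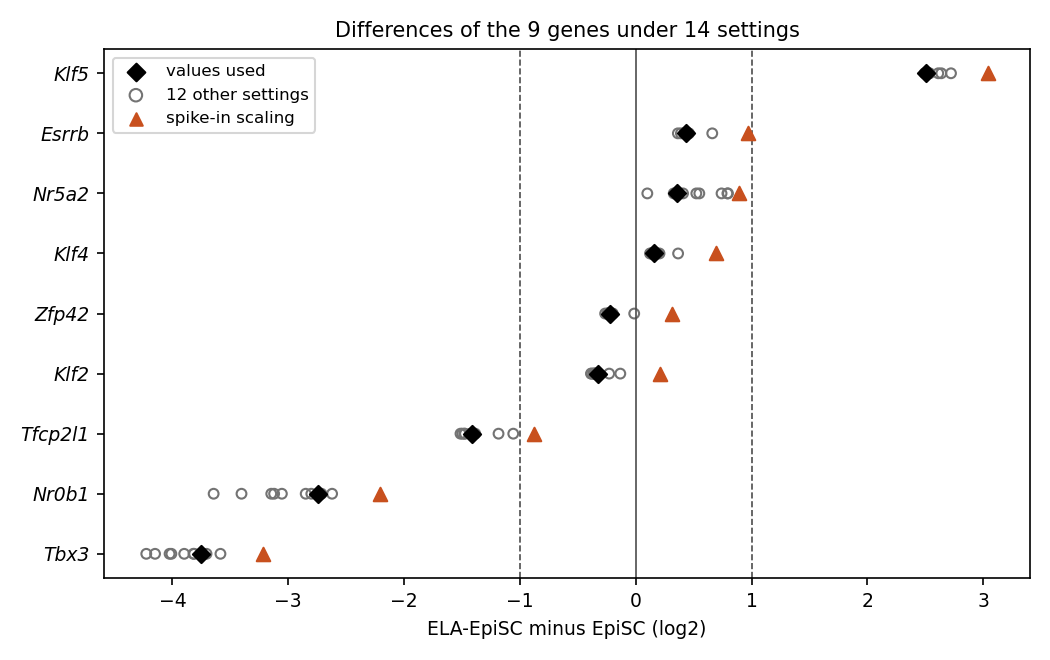
Difference of each gene (log2 ELA-EpiSC minus EpiSC, horizontal axis) with the values used (diamonds), under spike-in scaling (triangles) and under 12 other settings (circles). Dashed lines mark a difference of 1. Tbx3, Nr0b1 and Klf5 lie outside the lines in every setting, Tfcp2l1 lies at -0.88 under spike-in scaling, and Klf2 and Zfp42 cross 0 there.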

How the data were processed

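RNA of 1 EpiSC sample and 1 ELA-EpiSC sample was measured on Agilent SurePrint G3 mouse arrays with 1 dye, Cy3. The deposited scanner output gives linear, unnormalized intensity for each spot, and per the file headers were made with Feature Extraction 10.7.3.1 and probe coordinates of the mm9 assembly. A second deposited table gives log2 values that the authors had corrected for background and quantile normalized in limma, and it served as an alternative. Both arrays came from 1 slide and 1 scan.

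The mean spot intensity and the median local background were corrected by normexp with an offset of 50 (limma 3.58.1, R 4.3.3), fitted on all spots. Control spots and flagged spots (158 on the EpiSC array, 117 on the ELA-EpiSC array) were removed before quantile normalization of both arrays, and the log2 values of a probe's spots were averaged. The offset shrinks differences of dim probes, and quantile normalization removes any shift shared by all genes. A probe was detected where at least 0.5 of its unflagged spots were well above background by the scanner's flag. A gene took its brightest detected probe. Counts are of genes whose difference exceeded 1 in size and whose mean log2 reached 7.5; both sizes come from the methods of the study.

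Groups were taken from the sample titles. With 1 array per group no p-value was computed, and the number of arrays limits the precision. The error given, the spot SD, is the spread of the difference between the arrays over replicate spots, which covers neither labelling nor culture. For Nr0b1 the SD over its own spots was given as well. The procedure was tested on simulated data. The 9 genes and the gene lists were chosen with earlier results of these data known. All 9 genes were named, and genes of the other lists were named where they passed both sizes; Pou5f1, Sox2, Nanog and Fgf5 were named in any case as markers of the culture. Klf6, Tbx2, Tbx4, Tbx6, Grhl1, Krt8, Krt18, Yy1, Yy2, Gata6, Sox17, Foxa2, Dnmt3b, Fbxo15 and Zscan10 were named after their values were seen. So were Cubn, Dab2, Col1a2, Col3a1, Dcn, Thy1, Gsk3b, Mbd3 and undetected genes of the lists. Names of genes follow the scanner files. Promoter windows are those of RefSeq for assembly GRCm38.p6, in which 7 of the 9 genes have an entry.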

Additional observations from a re-analysis of the deposited data

How the results depend on the processing

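The counts of naive genes past 1 were 3 in EpiSC and 1 in ELA-EpiSC. They held under the other background corrections, scalings, probe choices and detection rules tried, with 3 exceptions in EpiSC, where 2 genes remained. Tfcp2l1 left the count under spike-in scaling (-0.88) and at a threshold of 2.5. Nr0b1 was not counted with a minimum mean of 9, since its mean was 8.31. Of the genes past 1 only Tfcp2l1 had more than 1 probe, so the probe choices could change no other. All 9 genes were detected on both arrays, so requiring that could change no count. The median difference of the 9 genes, -0.22, was -0.014 with median scaling and -0.030 over the 6 genes that passed a minimum of 9, and it turned to 0.32 under spike-in scaling. Klf2 and Zfp42 turned to 0.21 and 0.32 under spike-in scaling, and no other gene of the 9 changed sign in 13 alternatives. The cause of the lower spike-in signal was not tested. No paired analysis was possible because a group held a single array. Without replicate arrays, differences the size of those of Klf2, Klf4, Zfp42 and Esrrb cannot be told from variation between cultures, and neither can the larger ones be given an error that includes it. Signal over background limits Nr5a2, and it makes the sizes for Nr0b1 and Tbx3 in ELA-EpiSC depend on the offset.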
